A study of Danio rerio with 6 samples.

Results

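The *znf644* paralogs and the genes of H3K9 methylation are described here in CPT-treated zebrafish embryos that carry or lack Tdp1. The 10 genes are *znf644a*, *znf644b*, *ehmt1a*, *ehmt1b*, *ehmt2*, *suv39h1a*, *suv39h1b*, *setdb1a*, *setdb1b* and *dnmt1*. They were chosen by name, with earlier results of these data known, out of 19260 genes that the array's annotation names. Each gene is represented by the transcript cluster, the array's unit for a gene or part of it, that carries its symbol alone and has the highest mean over the arrays. *ehmt1b* has 2 such clusters and each of the other 9 genes has 1. No cluster with several symbols holds any of the 10. A further 53551 of the 75212 clusters carry no symbol, and whether any of them measures one of these genes was not analysed here.

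RNA came from lysates of whole embryos at 5 dpf, in 3 arrays of *tdp1-/-* and 3 of *tdp1WT* embryos. All embryos of both genotypes were kept in 500 nM camptothecin (CPT), a Top1 poison, for 16 hours, so the arrays hold no untreated control. The arrays were made to look for genes whose expression could make up for the loss of Tdp1. The mutants were made with CRISPR-Cas9 in the first coding exon. They carry the frameshift alleles SH475 and SH476 together or SH475 on both chromosomes, and which of these the embryos on the arrays had is, like the number of embryos behind each array, not given in the sources used here. All 3 arrays of each genotype come from biologically independent experiments. Same-numbered arrays of the genotypes varied together in part, with r of 0.20, 0.22 and 0.29 between their deviations from the genotype means. The genotypes were therefore also compared with the replicate number as a block, which sets each mutant array against the *tdp1WT* array of the same number. The authors' values are on the log2 scale, and the median of an array lay between 4.66 and 4.87. Probes of muscle (*mylpfa*, *ckma*), epidermis (*krt4*), pancreas (*ela2l*, *prss1*), erythrocytes (*hbae1.1*) and lens (*cryaa*) all gave mean values over 6.5, and the difference of *hbae1.1*, *tdp1-/-* minus *tdp1WT* in log2 value (the log2 fold change), was -0.43. The liver gene *fabp10a* and the photoreceptor gene *rho* were listed and are not analysed here. The *tdp1* cluster measured 5.18, 5.17 and 5.24 in *tdp1-/-* arrays, against 5.59, 5.34 and 5.85 in *tdp1WT* arrays, and so was lower on each mutant array.

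Methylation of lysine 9 on histone H3 (H3K9) marks silent chromatin. Ehmt2 (G9a) and Ehmt1 (GLP) add 1 or 2 methyl groups in gene-rich chromatin, and in human cells ZNF644 is a zinc finger partner that helps bring this complex to its sites. Suv39h1 writes the trimethylated mark of pericentromeric heterochromatin, and Setdb1 writes it at retroelements and other repeats. Dnmt1 copies DNA methylation to the new strand at replication. In the zebrafish, Dnmt1 and Suv39h1 have been linked in the terminal differentiation of gut, exocrine pancreas and retina.

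Of the 10 genes, *dnmt1* had the largest difference. It measured 1.50-fold lower in *tdp1-/-* than in *tdp1WT* embryos and was the only 1 called at the study's fold change of 1.2 with an unadjusted p under 0.05. The methyltransferase gene *suv39h1b* was 1.40-fold lower and *ehmt2* 1.21-fold lower, and neither was called. Both *znf644* paralogs had small positive differences, and *ehmt1a*, *ehmt1b*, *setdb1a* and *setdb1b* lay within 1.04-fold of no difference. So 1 of 10 was called, lower, against 1.89% of all 19260 genes named in this way and 3.57% of all clusters. With the replicate block, with a further quantile normalization or with arrays centred on the median *suv39h1b* was called as well, which made 2 of 10. The share of all genes called under these settings was 4.04%, 2.46% and 1.99%. With 1 array left out 0 to 2 of the 10 were called, against 0.831% to 3.11% of all genes. No gene or cluster was under an adjusted p of 0.05 in limma with Benjamini-Hochberg adjustment over all clusters, while 2688 clusters were under an unadjusted p of 0.05. All of these passed the fold change as well. Under an adjusted p of 0.05 were 7 clusters after a further quantile normalization, 8 with arrays centred on the median, 9 with array weights and 1 without *tdp1WT* replicate 3, and none of these clusters stands for any of the named genes. Among all named genes, 164 were called higher and 200 lower. These counts were 160 and 314 after a further quantile normalization and 130 and 253 with arrays centred on the median. The 10 genes had a median log2 fold change of -0.05, with 7 negative, beside a median of -0.005 with 9903 negative over all genes. The number of arrays limits every value here, and with 3 arrays against 3 the lowest p of an exact permutation test is 0.1.

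**Figure D1:**
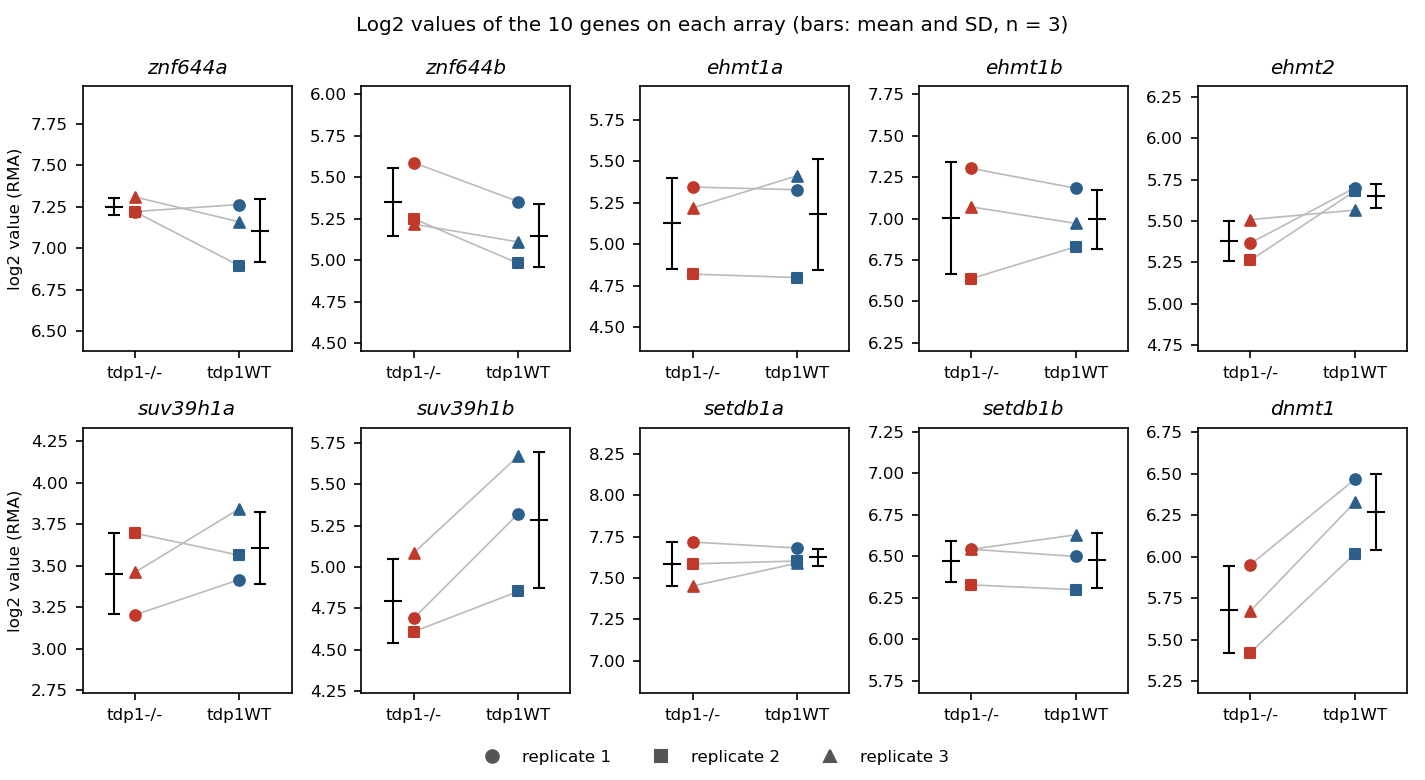
Log2 value (RMA) of each of the 10 genes on the 6 arrays, *tdp1-/-* left and *tdp1WT* right, with lines between same-numbered arrays and bars for the mean and SD (n = 3). Every panel spans the same height. *dnmt1* and *ehmt2* are the 2 genes whose *tdp1-/-* values all lie below all *tdp1WT* values. Of all genes, 7.72% had no overlap between the genotypes, in either direction.

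The cluster 13213234 is the only 1 named *znf644b*, so the values given for this gene are those of that cluster, and whether a cluster without a symbol also measures *znf644b* was not tested. It measured 5.59, 5.25 and 5.22 in *tdp1-/-* replicates 1, 2 and 3, against 5.35, 4.98 and 5.11 in *tdp1WT* replicates 1, 2 and 3. In each same-numbered pair the *tdp1-/-* array was the higher one, by 0.23, 0.27 and 0.11, but the genotypes overlapped because replicate 1 was high in both. The means were 5.35 ± 0.21 in *tdp1-/-* and 5.15 ± 0.19 in *tdp1WT* embryos (log2 value ± SD, n = 3 each), and the log2 fold change was 0.20. Its 95% confidence interval (CI) allows anything from 1.15-fold lower to 1.52-fold higher. It ranked 3508 of 19260 genes by p, and its adjusted p from limma was 1 (exact two-sided permutation p = 0.3).

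The *znf644a* cluster (13080771) measured 7.22, 7.22 and 7.31 in *tdp1-/-* arrays, against 7.26, 6.90 and 7.16 in *tdp1WT* arrays. The mutant arrays lay within 0.09 of each other, and *tdp1WT* replicate 2 was the low array. This gave a log2 fold change of 0.14, with a 95% CI from -0.21 to 0.50 (exact two-sided permutation p = 0.3). Pair by pair the difference was -0.04, 0.33 and 0.15. Whether the paralogs differed in their change was tested on the *znf644b* minus *znf644a* value of each array. This difference of log2 fold changes was 0.06 (95% CI from -0.34 to 0.46, exact two-sided permutation p = 0.9) and was -0.07 without *tdp1-/-* replicate 1.

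Next were the genes of the enzyme complex that ZNF644 binds in human cells. For *ehmt2* (13071852), which encodes the G9a methyltransferase, *tdp1-/-* arrays measured 5.37, 5.26 and 5.51, against 5.70, 5.68 and 5.57 in *tdp1WT* arrays. Every mutant array was below every *tdp1WT* array, though replicate 3 of the 2 genotypes differed by only 0.06. The means were 5.38 ± 0.12 in *tdp1-/-* and 5.65 ± 0.07 in *tdp1WT* embryos (log2 value ± SD, n = 3 each). At -0.27 the log2 fold change had a 95% CI from -0.59 to 0.06, so it was not called, with or without the replicate block. Its exact permutation p was the lowest possible, 0.1. Without overlap were 2 of the 10 genes, *ehmt2* and *dnmt1*, against 7.72% of all genes.

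The partner enzyme GLP is encoded by *ehmt1a* and *ehmt1b*. The *ehmt1a* cluster (13204974) measured 5.34, 4.82 and 5.22 in *tdp1-/-* arrays, against 5.33, 4.80 and 5.41 in *tdp1WT* arrays. Replicate 2 was the low array in both genotypes, and in the pairs of replicates 1 and 2 the genotypes differed by only 0.02. Over all arrays its log2 fold change was -0.05 (95% CI from -0.57 to 0.47, exact two-sided permutation p = 0.8). For *ehmt1b*, the cluster with the higher mean (13114460) measured 7.30, 6.64 and 7.07 in *tdp1-/-* arrays, against 7.18, 6.83 and 6.97 in *tdp1WT* arrays, again lowest in replicate 2. Its log2 fold change was 0.01 (95% CI from -0.47 to 0.49). The other *ehmt1b* cluster (13108829) was dim, with 2.77, 3.06 and 3.10 in *tdp1-/-* arrays and 3.34, 2.98 and 3.69 in *tdp1WT* arrays. It gave a log2 fold change of -0.36 (95% CI from -0.85 to 0.14), so the clusters of this gene did not share a direction, and neither was called. Between the paralogs, *ehmt1b* minus *ehmt1a* differed by 0.06 in log2 fold change (95% CI from -0.34 to 0.46, exact two-sided permutation p = 0.9), and by -0.07 without *tdp1WT* replicate 3.

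Of the *suv39h1* pair, *suv39h1b* (13253489) measured 4.69, 4.61 and 5.08 in *tdp1-/-* arrays, against 5.32, 4.85 and 5.67 in *tdp1WT* arrays. The mutant array was lower in each same-numbered pair, by 0.63, 0.24 and 0.58 on the log2 scale. Over all arrays the genotypes overlapped, because *tdp1WT* replicate 2 lay below *tdp1-/-* replicate 3. The means were 4.80 ± 0.25 in *tdp1-/-* and 5.28 ± 0.41 in *tdp1WT* embryos (log2 value ± SD, n = 3 each). For the log2 fold change of -0.49 the standard error was 0.24 without the replicate number as a block and 0.14 with it. The 95% CI was from -1.05 to 0.07 without the block and from -0.84 to -0.13 with it, and of these 2 fits *suv39h1b* was called in the one with the block. Its adjusted p with the block was 0.739 in limma (exact permutation test without pairing, two-sided, p = 0.2). It was also called after quantile normalization (-0.51), with arrays centred on the median (-0.51), without *tdp1WT* replicate 2 (-0.70) and without *tdp1-/-* replicate 3 (-0.63), while without *tdp1WT* replicate 3 the log2 fold change was -0.29.

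Its paralog *suv39h1a* (13245509) had a dim cluster, with 3.20, 3.70 and 3.46 in *tdp1-/-* arrays and 3.42, 3.56 and 3.84 in *tdp1WT* arrays. The genotypes overlapped, and the pair of replicate 2 ran against the other 2 pairs, by 0.13. Its log2 fold change was -0.15 (95% CI from -0.59 to 0.28, exact two-sided permutation p = 0.5). The difference of log2 fold changes, *suv39h1b* minus *suv39h1a*, was -0.33 (95% CI from -1.14 to 0.48, exact two-sided permutation p = 0.3). With the replicate block the interval of this difference was from -0.62 to -0.04. With 1 array left out, and without the block, the difference was -0.52 to -0.12, and each of these intervals included 0. In all 4 paralog pairs were compared, and the other 3 had intervals that include 0 with and without the block.

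The *setdb1* genes had small differences. *setdb1a* (13067446) measured 7.72, 7.59 and 7.45 in *tdp1-/-* arrays, against 7.68, 7.60 and 7.59 in *tdp1WT* arrays. Its log2 fold change was -0.04, with a 95% CI that allows up to 1.29-fold lower and 1.22-fold higher. *setdb1b* (13038177) measured 6.54, 6.33 and 6.54 in *tdp1-/-* arrays, against 6.50, 6.30 and 6.63 in *tdp1WT* arrays. The values of its same-numbered arrays lay within 0.09 of each other, and its log2 fold change was -0.005 with an interval from 1.29-fold lower to 1.28-fold higher. The paralogs differed in log2 fold change by 0.03 (*setdb1b* minus *setdb1a*, 95% CI from -0.37 to 0.44, exact two-sided permutation p = 0.7), and by -0.04 without *tdp1WT* replicate 2 or -0.07 without *tdp1-/-* replicate 3.

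**Figure D2:**
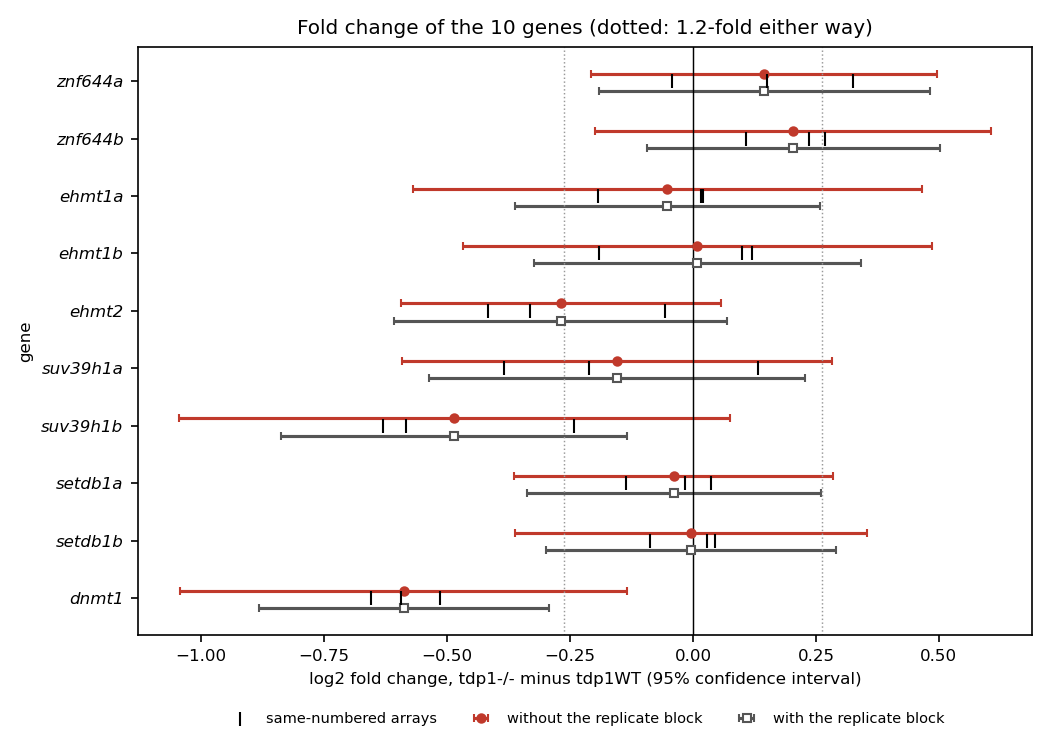
Log2 fold change of *tdp1-/-* minus *tdp1WT* for each gene with its 95% confidence interval, without (filled) and with (open) the replicate block, and the 3 differences of same-numbered arrays as ticks. The intervals of *dnmt1* lie below 0 in both fits and that of *suv39h1b* only with the block, from -0.84 to -0.13.

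The *dnmt1* cluster (13178491) measured 5.95, 5.42 and 5.67 in *tdp1-/-* replicates 1, 2 and 3, against 6.47, 6.02 and 6.33 in *tdp1WT* replicates 1, 2 and 3. Replicate 2 was the low array and replicate 1 the high array in both genotypes, and the highest mutant array was below the lowest *tdp1WT* array. The same-numbered differences of -0.51, -0.59 and -0.66 lay close together. Means were 5.68 ± 0.26 in *tdp1-/-* and 6.27 ± 0.23 in *tdp1WT* embryos (log2 value ± SD, n = 3 each). This is a log2 fold change of -0.59, with a 95% CI from -1.04 to -0.13 without and from -0.88 to -0.29 with the replicate block. In ratio terms the interval without the block runs from 2.06-fold to 1.097-fold lower. By p, *dnmt1* was in place 88 of 19260 genes. The adjusted p was 1 in limma and 0.738 with the replicate block (exact two-sided permutation p = 0.1, the smallest possible). The call was lost without *tdp1WT* replicate 1 (log2 fold change -0.49) and without *tdp1-/-* replicate 2 (-0.46), and it was kept without any 1 of the other 4 arrays. In RNA of whole embryos, fewer cells that express a gene and less of its RNA per cell cannot be told apart.

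Replication ties *dnmt1* to dividing cells, so markers of proliferation are given beside it. Of 15 listed, 11 had a cluster that carries their symbol alone and are analysed here. The list was chosen with earlier results of these data known. The log2 fold change was negative for all 11 (median -0.28), beside 51.4% of all genes. It was smallest in size for *top2a* (-0.06) and *pcna* (-0.08). In all 3 same-numbered pairs 8 of the 11 were lower, against 31.2% of all genes with 3 pairs in 1 direction. Called lower were 2, against 1.89% of all genes called. These were the mitotic kinase gene *cdk1* and the thymidylate synthase gene *tyms*, with log2 fold changes of -0.58 and -0.54. With the replicate block *rrm1*, a ribonucleotide reductase subunit, and *mcm3*, of the replicative helicase, were called lower too. This made 4 of 11, against 4.04% of all genes. The mean level of the 11 markers was 6.55, 6.22 and 6.58 in *tdp1-/-* arrays, against 6.90, 6.54 and 6.85 in *tdp1WT* arrays. It was lower in each same-numbered pair, by 0.36, 0.32 and 0.28, and replicate 2 was again the low array. Both *dnmt1* and *suv39h1b* were also lower in each pair, and the part of these markers in their differences was not tested. The erythrocyte gene *hbae1.1* was called lower too, with and without the block. It measured 8.22, 8.03 and 8.08 in *tdp1-/-* arrays, against 8.57, 8.36 and 8.69 in *tdp1WT* arrays, without overlap and lower in each pair, and its part was likewise not tested. Of 10 neural progenitor markers none was called and 6 were negative, with a median of -0.04. Their mean level was 6.07 to 6.14 in *tdp1-/-* arrays, against 6.10 to 6.15 in *tdp1WT* arrays. Of 9 markers of postmitotic neurons none was called and 8 were negative, with a median of -0.08. Their mean level was 7.88 to 8.25 in *tdp1-/-* arrays, against 8.08 to 8.24 in *tdp1WT* arrays. Among the 7 analysed genes that checked for tissues, *hbae1.1* included, 6 were negative.

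**Figure D3:**
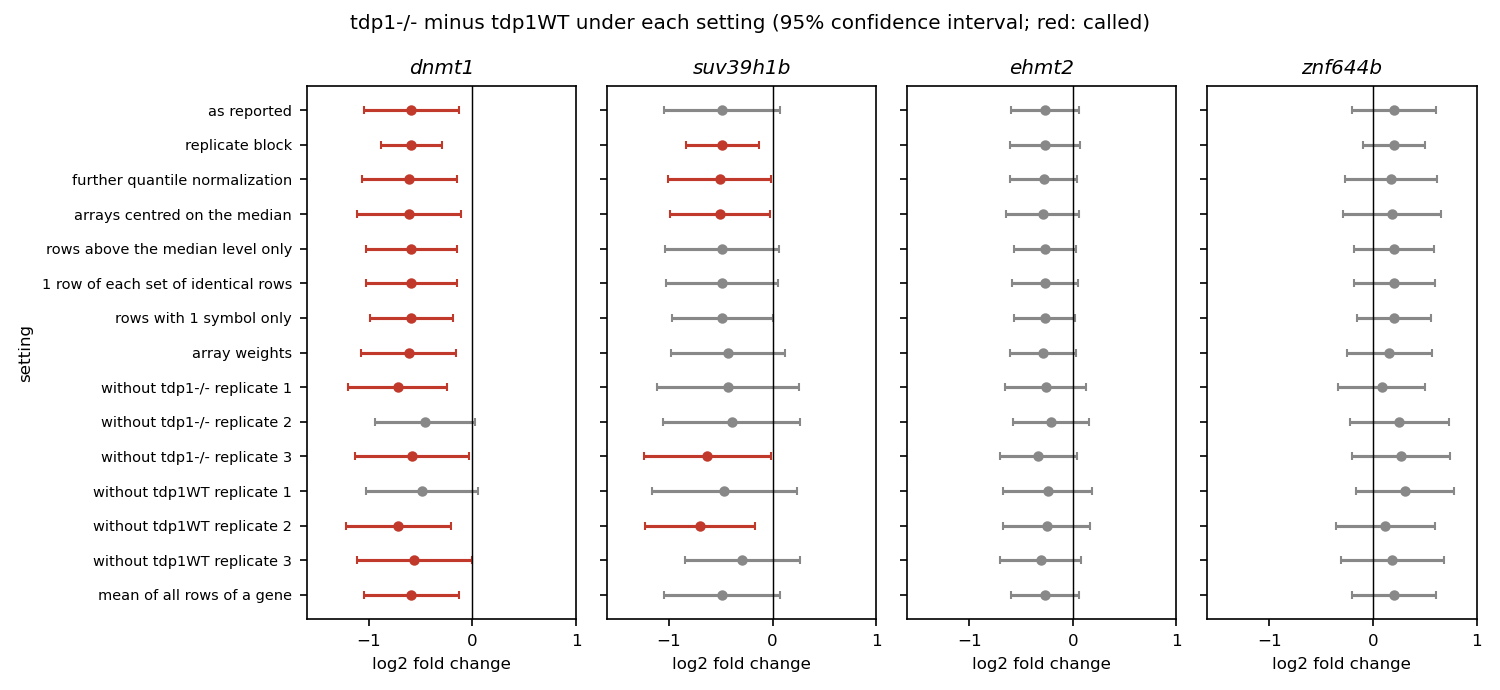
Log2 fold change of *dnmt1*, *suv39h1b*, *ehmt2* and *znf644b* (*tdp1-/-* minus *tdp1WT*, 95% confidence interval) as reported and under 14 other settings, red where called. *dnmt1* was called in all but 2 of the other settings, *suv39h1b* in 5, and *ehmt2* and *znf644b* in none, and each of the 4 genes kept its sign throughout.

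The replicates of the 10 genes varied together across genotypes. Replicate 2 was the lowest array for 7 of the 10 genes in *tdp1-/-* embryos and for 7 of the 10 in *tdp1WT* embryos, with 6 genes in common. How often replicate 2 was lowest over all genes was not counted, so this is not shown to be particular to the 10. The mean of the 10 log2 values was 5.89, 5.68 and 5.85 in *tdp1-/-* arrays, against 6.02, 5.75 and 6.03 in *tdp1WT* arrays. All 3 same-numbered pairs ran in 1 direction for 4 of the 10 genes, *znf644b* (higher) and *ehmt2*, *suv39h1b* and *dnmt1* (lower), against 31.2% of all genes. The block lowered the standard error of all 10, and for *ehmt1a* it was 0.12 with the block and 0.22 without it. How many of all genes had a lower standard error with the block was not counted, so this is not shown to be particular to the 10 either. With the block 2 of the 10 were called, *dnmt1* and *suv39h1b*, both lower, against 4.04% of all genes.

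Around these 10 genes, 50 others that act on H3K9, DNA or H3K27 methylation were analysed. These were found among the clusters with 1 symbol, from 61 listed names. None of the 50 was called, against 1.89% of all genes. With the replicate block 1 was called higher and 1 lower, against 4.04% of all genes. Without overlap between the genotypes were 3 of the 50, against 7.72% of all genes. The log2 fold changes of the 50 ran from -0.35 to 0.35 with a median of -0.006, and 27 were negative. Among 5 other H3K9 methyltransferase genes, of the PRDM and SETDB families, *prdm2a* was called higher with the block, at a log2 fold change of 0.35 (95% CI from -0.14 to 0.84 without the block and from 0.03 to 0.67 with it). It measured 8.16, 7.94 and 7.64 in *tdp1-/-* arrays, against 7.71, 7.76 and 7.22 in *tdp1WT* arrays, higher in each pair and overlapping between the genotypes. Of 9 partner genes, none was called in either fit, and the smallest p belonged to *morc3a*, of a family of chromatin ATPases, at -0.16. The list of readers of the mark and other genes held the HP1 genes *cbx1a*, *cbx1b*, *cbx3a*, *cbx3b* and *cbx5*, with *mphosph8*, *l3mbtl2* and *hells*. These 8 genes ranged from -0.10 to 0.08, and *hells* was the highest. Of these, *cbx1a* had the largest difference by size and the smallest p. The *cbx1a* cluster measured 8.18, 7.81 and 8.35 in *tdp1-/-* arrays, against 8.17, 8.11 and 8.35 in *tdp1WT* arrays. Only its replicate 2 pair was apart.

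Of 8 H3K9 demethylase genes none was called, and the median log2 fold change was 0.08. Of them *kdm7aa* had the smallest p, with 7.39, 7.23 and 7.22 in *tdp1-/-* arrays, against 7.20, 7.07 and 7.18 in *tdp1WT* arrays. These values did not overlap, but the log2 fold change was 0.13 (95% CI from -0.18 to 0.45). Beside *dnmt1*, 9 other genes of DNA methylation had a median of -0.08. Of the de novo DNA methyltransferase genes, *dnmt3bb.3* measured 4.45, 4.22 and 4.30 in *tdp1-/-* arrays, against 4.76, 4.40 and 4.87 in *tdp1WT* arrays. It was lower in each pair, with a log2 fold change of -0.35, and was called with the block and not without it (95% CI from -0.75 to 0.04 without it and from -0.70 to -0.01 with it). The other 5 *dnmt3* genes lay between -0.10 and 0.10 and were not called. The 11 genes of H3K27 methylation, a separate repressive mark, had a median of 0.03, with none called in either fit and the demethylase gene *kdm6ba* highest at 0.25.

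**Figure D4:**
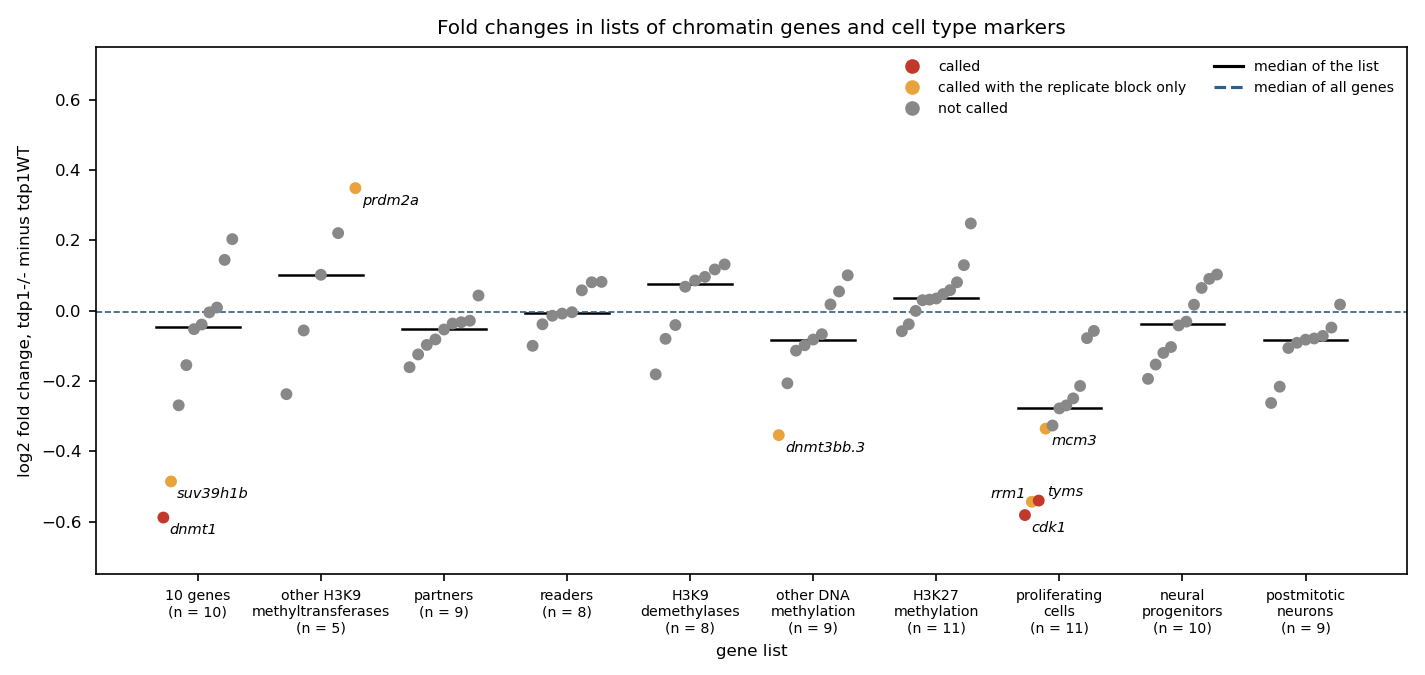
Log2 fold change (*tdp1-/-* minus *tdp1WT*) of the 10 genes and of each list of chromatin genes or cell type markers, with 1 point per gene, the list's median as a black line and the median of all genes as a dashed line. The list of proliferating cells has the lowest median, -0.28, and *dnmt1* lies at the level of its lowest genes.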

How the data were processed

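RNA (200 ng per array) was labelled with the Affymetrix WT plus protocol, and the authors' deposited log2 values come from RMA in the Transcriptome Analysis Console, with background correction, quantile normalization and 1 value per transcript cluster. The genome build is not given in the sources used here. Of 75212 clusters the platform annotation gives 1 symbol to 20806, of which 20323 were updated by Entrez ID to RefSeq symbols of GRCz12tu.

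*tdp1-/-* minus *tdp1WT* was fitted on all clusters with limma 3.58.1 (lmFit and eBayes) in R 4.3.3, with Benjamini-Hochberg adjustment over all clusters. Called means changed by over 1.2-fold, the study's threshold, with p under 0.05 before adjustment. The fit was tested on simulated data with planted changes larger than the difference of any of these 10 genes, so smaller changes were not covered. Alternatives were the block, further normalization, filters on clusters, array weights and leaving out each array. Of all clusters 14293 share their 6 values with another, and none of these 10 genes does.

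Both genotypes carry numbers 1 to 3. The sample titles give this number and nothing else that links arrays of the genotypes. Deviations of same-numbered arrays from their genotype means correlated with r of 0.203, 0.216 and 0.29, all over 0.1. Between differently numbered arrays r was -0.28 to 0.08. On these values the arrays were taken as paired, and fits with the number as a replicate block are given where they change a call or a count.

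Named were the 10 genes, *tdp1*, and from the gene lists each gene called in either fit and the gene with the smallest p of each list. Of the marker lists, genes were named that were called, that had the smallest differences among the proliferation markers, or as a check of tissues. The 10 genes and the lists were chosen with earlier results of these data known. Sequences of these genes are not used here.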

Additional observations from a re-analysis of the deposited data

How the results depend on the processing

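Each log2 fold change was recomputed under up to 14 alternatives. *znf644a*, *znf644b*, *ehmt2*, *suv39h1a*, *suv39h1b* and *dnmt1* kept their sign in all of them, and no gene of the 10 was under an adjusted p of 0.05 in any. *suv39h1a* was below the median level and could not be tested with dim clusters removed. The sign of genes near 0 turned. For *ehmt1b* it did so after quantile normalization (-0.0031), with arrays centred on the median (-0.013), with array weights (-0.027), with the mean of its 2 clusters (-0.17) and with 1 array left out (-0.14 to 0.19), and for *setdb1b* with array weights (0.013) and with 1 array left out (-0.093 to 0.072). Leaving out 1 array gave -0.24 to 0.10 for *ehmt1a* and -0.11 to 0.027 for *setdb1a*. It gave differences between paralogs of -0.074 to 0.16 for *znf644b* minus *znf644a*, -0.067 to 0.17 for *ehmt1b* minus *ehmt1a* and -0.068 to 0.13 for *setdb1b* minus *setdb1a*. For *suv39h1b* minus *suv39h1a* the difference was -0.52 to -0.12. The count of the 10 genes called was 2 with the replicate block, after quantile normalization and with median centring. Of all genes 4.04%, 2.46% and 1.99% were called under these settings. With 1 array left out the count was 0 to 2 of the 10, against 0.831% to 3.11% of all genes. Over all named genes the count of 364 became 778 with the replicate block, 621 when only clusters with 1 symbol were tested, and 160 (without *tdp1WT* replicate 1) to 599 (without *tdp1-/-* replicate 1) with 1 array left out. Over all clusters 2688 became 4830 with the block, 1340 with dim clusters removed, 676 with 1-symbol clusters only, where fewer were tested, and 1881 to 5004 with 1 array left out. The cause of the other changes was not tested. The replicate block changed no other call among the 10 genes.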
